A study of Mus musculus with 6 samples.

Results

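The 44 genes described here are read as markers of dividing cells: 20 that are known to act in DNA synthesis (S phase) and 24 that act in G2 and mitosis (G2/M). They were taken by symbol from the 32285 genes of the deposited tables, and every symbol matched 1 gene. The list was chosen with earlier results of these data known. Non-cardiomyocyte cells of mouse heart ventricles were profiled by droplet single-cell RNA-seq (10x 3′), which counts unique molecular identifiers (UMIs), each standing for 1 captured transcript. Wild-type mice (WT, strain C57BL/6JRj) and mice of strain B6.Cg-Trpm4tm1.2-PG, in which Trpm4, a calcium-activated cation channel, is knocked out (KO), had either a sham operation or a ligation of the left anterior descending (LAD) coronary artery, which causes a myocardial infarction. Both genotypes were taken 24 h after sham, 24 h after ligation and 72 h after ligation, all mice were male and 8 to 12 weeks old, and the cells of 4 mice were pooled into 1 library per group, 6 libraries in all. The ventricles were digested with thermolysin and papain, a 40 um mesh held back cardiomyocytes, and live cells were sorted as Calcein-AM positive and DAPI negative, so the cells seen are those that survived digestion and sorting. No sham group at 72 h and no second library of any group was analysed here, and the deleted part of Trpm4 is not stated in the labels. With 1 library per group there is no replicate error. Every interval below is a 95% interval that covers counting error only, and no p-value was computed.

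A cell that enters S phase uses the MCM helicase (Mcm2 to Mcm7) at its replication origins. It raises nucleotide synthesis (Tyms, Dut, Rrm1, Rrm2, Tk1) and loads the sliding clamp Pcna. In G2 and mitosis it makes the cyclin B and Cdk1 kinase and its regulators, the spindle and kinetochore proteins and the machinery that splits the cell. Transcripts of the first kind are switched on largely by E2F factors and those of the second by the MuvB complexes with B-Myb and FoxM1. In the infarcted heart, neutrophils arrive as non-dividing cells, monocytes become macrophages that can divide in place, and fibroblasts divide before they lay down scar.

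The regulatory sequences of the members show the division into S and G2/M genes on the DNA side. RefSeq promoter entries (250 bases before to 50 bases after the start of transcription, build GRCm38.p6) were found for 36 of the 44 members. Stmn1, Tpx2, Aurkb, Ccna2, Ccne2, Mcm4, Gins2 and Kif20a had no match. Both strands were searched for 4 E2F octamers (TTTGGCGC, TTTCCCGC, TTTCGCGC, TTTGCCGC, matches of which can overlap one another), for the cell cycle homology region of G2/M promoters (CHR, TTTGAA) and for the CCAAT box (CCAAT). An E2F match was present in 8 of 17 S promoters (47.1%) and 1 of 19 G2/M promoters (5.26%), against 2.32% of all 27025 promoters. A CHR match was present in 1 of 17 S promoters (5.88%) and 14 of 19 G2/M promoters (73.7%), against 18.1% of all promoters. CCAAT was present in 11 of 17 S promoters (64.7%), 17 of 19 G2/M promoters (89.5%) and 37.9% of all. Both CHR and CCAAT occurred in 14 of the 19 G2/M promoters, 1 of the 17 S promoters and 7.12% of all promoters. These are matches of letters and not measured binding.

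The 200 bases before the start of transcription are printed for the 4 S and 4 G2/M members with the most UMIs whose window holds no annotated exon, so that the arrangement behind these counts can be seen. Capitals mark any of the 3 motifs on either strand, and each sequence is written 5′ to 3′ on the strand of its gene. The Mcm6 window (chr1:128359706-128359905, minus strand) holds 2 overlapping E2F octamers and a single one nearer the start. The Mcm3 window (chr1:20820313-20820512, minus strand) holds CCAAT boxes only, its E2F matches lying after the start. The Tyms window (chr5:30073626-30073825, minus strand) holds no match and the Rrm1 window (chr7:102441495-102441694, plus strand) 2 CCAAT boxes. Among the G2/M genes, Mki67 (chr7:135716380-135716579, minus strand), Top2a (chr11:99024190-99024389, minus strand) and Ccnb2 (chr9:70421555-70421754, minus strand) hold both CHR and CCAAT, whereas Birc5 (chr11:117849037-117849236, plus strand) holds neither.
Mcm6: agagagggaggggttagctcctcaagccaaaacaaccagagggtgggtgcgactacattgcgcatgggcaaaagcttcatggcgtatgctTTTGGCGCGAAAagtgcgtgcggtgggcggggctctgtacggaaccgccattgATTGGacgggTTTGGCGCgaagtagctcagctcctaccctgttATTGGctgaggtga
Mcm3: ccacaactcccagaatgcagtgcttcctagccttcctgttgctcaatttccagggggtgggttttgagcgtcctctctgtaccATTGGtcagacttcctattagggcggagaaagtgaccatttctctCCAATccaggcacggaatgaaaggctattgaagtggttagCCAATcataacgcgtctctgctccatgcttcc
Tyms: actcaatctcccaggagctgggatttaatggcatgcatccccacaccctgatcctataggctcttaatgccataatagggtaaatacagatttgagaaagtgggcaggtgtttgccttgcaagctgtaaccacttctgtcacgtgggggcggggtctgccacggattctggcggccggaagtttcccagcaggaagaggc
Rrm1: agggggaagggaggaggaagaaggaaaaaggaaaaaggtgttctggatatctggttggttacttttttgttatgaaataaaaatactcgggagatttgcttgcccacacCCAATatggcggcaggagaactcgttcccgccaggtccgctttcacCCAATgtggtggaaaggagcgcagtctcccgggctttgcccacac
Mki67: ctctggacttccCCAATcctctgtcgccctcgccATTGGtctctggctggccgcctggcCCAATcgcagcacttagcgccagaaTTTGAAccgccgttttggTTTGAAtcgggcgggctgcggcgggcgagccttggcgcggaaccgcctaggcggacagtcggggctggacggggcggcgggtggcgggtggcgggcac
Top2a: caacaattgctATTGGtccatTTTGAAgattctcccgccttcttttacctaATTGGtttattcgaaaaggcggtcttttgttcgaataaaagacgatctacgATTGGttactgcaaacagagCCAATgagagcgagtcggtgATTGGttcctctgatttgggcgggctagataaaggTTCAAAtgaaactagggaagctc
Ccnb2: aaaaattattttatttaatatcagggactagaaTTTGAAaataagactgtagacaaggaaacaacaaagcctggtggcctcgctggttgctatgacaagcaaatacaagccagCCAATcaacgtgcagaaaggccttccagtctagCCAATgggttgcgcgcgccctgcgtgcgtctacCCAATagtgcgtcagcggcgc
Birc5: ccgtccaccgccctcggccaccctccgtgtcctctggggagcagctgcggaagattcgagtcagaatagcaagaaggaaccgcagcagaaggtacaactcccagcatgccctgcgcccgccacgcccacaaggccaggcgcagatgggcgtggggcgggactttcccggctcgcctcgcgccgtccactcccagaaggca

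After filtering, 3365 to 6824 cells per library were kept, 32085 of 34940 deposited, from libraries of 20995280 to 45649061 UMIs. The KO library at 72 h stood apart in depth, with a median of 1352 UMIs per cell against 3065 to 7978 in the other 5, and 36.8% of its cells had under 1000 UMIs against 2.54% to 7.73%. Trpm4 was present in every library, with levels in CPM, the usual depth-scaled unit in which the UMIs of a gene are divided by all UMIs of the cells summed, of 8.79, 5.52 and 4.29 in WT sham, WT ligation at 24 h and WT ligation at 72 h and 6.20, 3.46 and 2.57 in the matching KO libraries. A 3′ tag outside a deleted part would be counted in a knockout too, so this does not check the genotype labels. Cell types were assigned to 32 clusters from marker genes, and 4 clusters were left unnamed. All 16 monocyte/macrophage markers, all 10 fibroblast markers and all 11 endothelial markers had UMIs in their class in every library. Of the kept cells, 101 (0.316%) had a barcode that also occurred in another library, and 44 to 125 of the doublets removed per library were list-positive.

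The list as a whole gave 238 and 192 CPM at 24 h after ligation in WT and KO, 368 and 370 CPM in the shams, and 1333 and 1043 CPM at 72 h. All 44 members had UMIs in 5 libraries and 43 in WT ligation at 24 h, where Hmmr, a spindle-binding protein, had none. At sham and 24 h these UMIs came mostly from 10 members taken here as broadly expressed (Stmn1, Dut, Pcna, Rrm1 and Mcm2 to Mcm7). These 10 are a fixed list and were not measured in resting cells. In monocytes and macrophages they gave 65.6% to 70.6% of the list UMIs in those 4 libraries and 49.6% and 50.8% at 72 h in WT and KO. Other members overlapped them in level. In WT sham of this class Cenpa was at 17.0 and Cdt1 at 11.4 CPM. Mcm2 (5.705) and Mcm7 (5.42) were lower, and Pcna (86.5) and Mcm3 (25.7) higher. In fibroblasts the same 10 genes gave 72.3% to 83.8% at sham and 24 h and 33.0% and 32.2% at 72 h. A count of list UMIs therefore mixes the level of these genes with the number of dividing cells, and the G2/M genes are given apart.

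Who carried the list was first read with the threshold of 3 or more list UMIs in a cell, called list-positive here. At the depth of the files, 38.0%, 37.8%, 37.2% and 34.2% of monocytes and macrophages were list-positive in WT sham, KO sham, WT 24 h and KO 24 h, and 54.4% and 28.0% at 72 h in WT and KO. These shares moved with depth: the median cell of this class had 9861 to 12024 UMIs in 5 libraries and 3122 in KO at 72 h. Neutrophils, which should not divide, gave 0.113% to 2.20% at median depths of 1957 to 3163 UMIs. Each cell was therefore also thinned to 1000 UMIs, and cells with fewer were left out.

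After thinning, list-positive monocytes and macrophages were 0.80% in WT sham, 0.380% in KO sham, 0.307% in WT 24 h and 0.275% in KO 24 h. At 72 h they were 7.22% (6.12% to 8.45%, 143 of 1981 cells) in WT and 6.40% (5.12% to 7.90%, 81 of 1265 cells) in KO. Both 72 h libraries lay above the other 4, by 6.91 points (5.58 to 8.16) over 24 h in WT and 6.13 points (4.83 to 7.62) in KO. Thinned neutrophils gave 0% to 0.739% over the 6 libraries, with the highest value in KO at 72 h. At sham and 24 h they gave 0% to 0.150%, below the monocyte and macrophage shares of the same libraries, and the part of free RNA in those low shares was not tested. In the 3 neutrophil libraries without a list-positive cell, 0 of 867, 0 of 1178 and 0 of 3401 cells allow shares of up to 0.346%, 0.255% and 0.0882%.

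Fibroblasts showed the larger share. Thinned list-positive fibroblasts were 1.64% in WT sham, 0.222% in KO sham, 1.04% in WT 24 h and 0.556% in KO 24 h. At 72 h they were 26.4% (19.5% to 34.2%, 39 of 148 cells) in WT and 22.6% (18.9% to 26.5%, 111 of 492 cells) in KO, which is 25.3 points (18.4 to 33.0) and 22.0 points (17.7 to 25.9) above 24 h. At the depth of the files the order was hidden: 38.6%, 37.6%, 49.7%, 47.8%, 64.5% and 31.1% in WT sham, KO sham, WT 24 h, KO 24 h, WT 72 h and KO 72 h, with median depths of 8844 to 10809 UMIs in 5 libraries and 1049 in KO at 72 h. In that library 412 of 904 fibroblasts were under 1000 UMIs and were left out of the thinned share. Of the list-positive cells at the depth of the files, 76% of fibroblasts had 10 or more list UMIs in WT at 72 h and 17.8% in KO, against 6.51% to 20.9% at sham and 24 h, so the shallow KO library lay within the earlier range. For monocytes and macrophages it was 28.9% and 24.1% at 72 h against 4.61% to 7.79%. More G2/M than S UMIs were counted in 54% and 70.1% of the list-positive fibroblasts at 72 h, WT first, against 0% to 5.33% before, and in 17.2% and 29.4% of the monocytes and macrophages against 6.58% to 8.82%.

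Without the 10 members taken as broadly expressed, the thinned shares at 72 h were 3.84% and 3.56% in monocytes and macrophages and 16.2% and 14.4% in fibroblasts, WT first. With the same 34 genes, 0% to 0.20% of monocytes and macrophages and 0% to 0.545% of fibroblasts were list-positive at sham and 24 h. In the 34 other members, both 72 h libraries thus also lay above the sham and 24 h libraries, whose order among themselves was not the same.

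**Figure D1:**
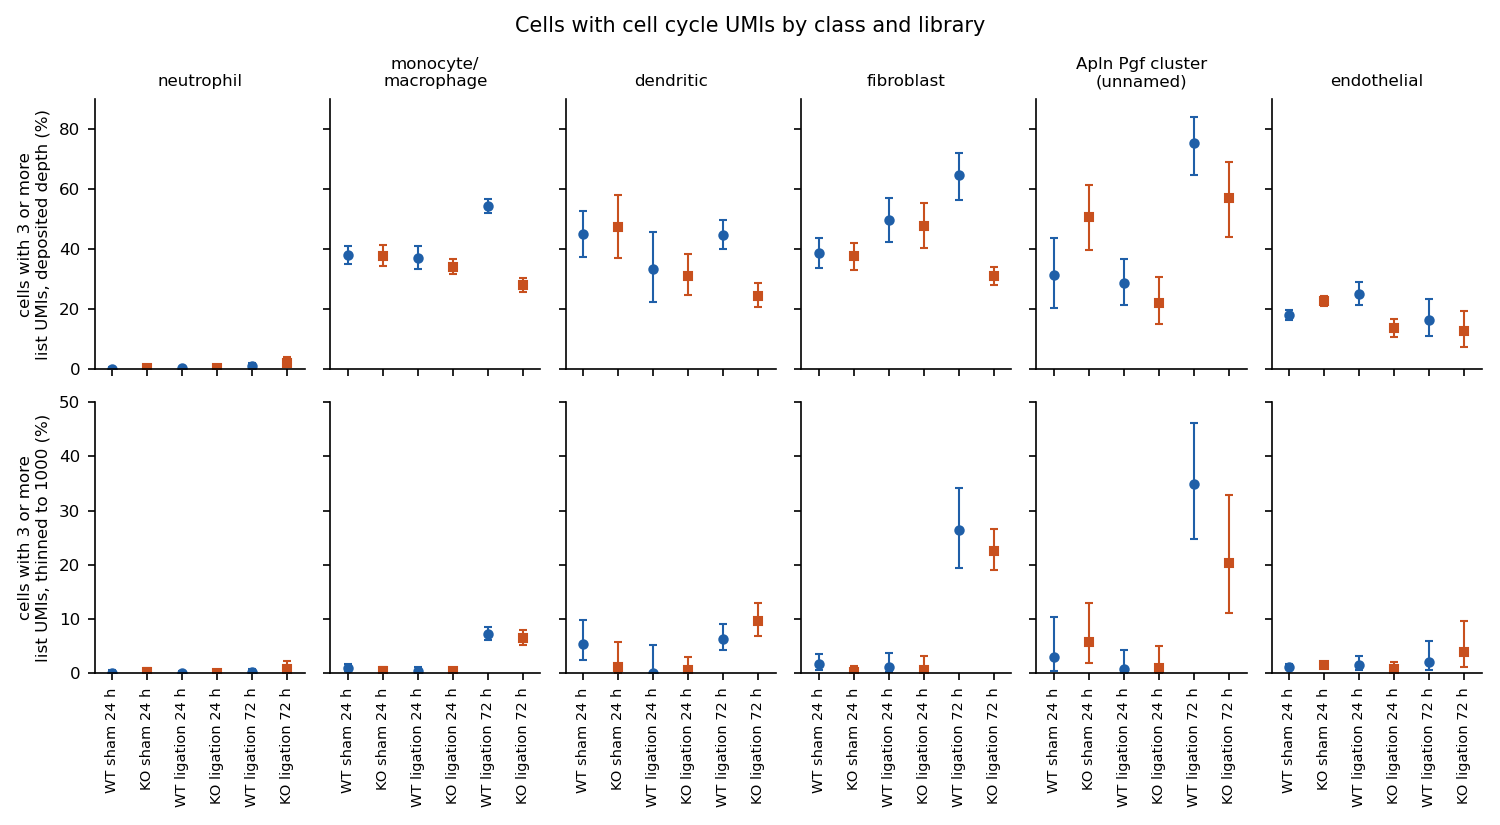
Percent of cells with 3 or more UMIs over the 44 genes, by class (columns) and library (x axis), at the depth of the files (upper row) and after thinning each cell to 1000 UMIs (lower row); circles are WT, squares KO, bars 95% exact binomial intervals for counting error. Thinned shares at 72 h reach 26.4% and 22.6% in fibroblasts and 7.22% and 6.40% in monocytes and macrophages, and neutrophils stay at or below 0.739%.

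An unnamed cluster led by Apln, the apelin peptide of tip endothelial cells, and Pgf, placental growth factor, had a thinned share of 2.99%, 5.75%, 0.758%, 0.901%, 34.9% (24.8% to 46.2%) and 20.3% (11% to 32.8%) in WT sham, KO sham, WT 24 h, KO 24 h, WT 72 h and KO 72 h. Its difference between genotypes at 72 h was -14.6 points, KO minus WT (-28.2 to 0.577). Endothelial was the best-scoring class of this cluster, with 10 endothelial markers detected. It was left unnamed because its top 10 genes held more markers of another class. The main endothelial class was at 1.10%, 1.47%, 1.48%, 0.792%, 2.06% and 3.85% in the same order. Its 72 h share was 0.578 points (-1.472 to 4.465) above 24 h in WT. In KO it was 3.05 points (0.412 to 8.70) above, from 4 of 104 cells. Without the 10 members taken as broadly expressed, list-positive endothelial cells at 72 h were 1 of 146 in WT and 1 of 104 in KO. At 24 h they were then 0 of 474 and 0 of 505, which allow up to 0.633% and 0.594%. In sham they were 1 of 2087 and 5 of 2853. Dendritic cells gave 5.26%, 1.05%, 0%, 0.529%, 6.27% and 9.55%, with 0 of 69 cells in WT at 24 h, which allows up to 4.35%. T and NK cells gave 5.75% and 10.5% at 72 h in WT and KO, and B cells 2.62% and 1.49%. Smooth muscle cells had no list-positive cell among the 151 of WT sham and 217 of KO sham, which allow up to 1.99% and 1.38%.

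Several groups had at least 50 cells at 72 h in KO only. There the thinned share was 25.9% (19.0% to 33.7%) in lymphatic endothelial cells, 26.9% (20.2% to 34.4%) in mesothelial cells and 14.5% (9.79% to 20.4%) in pericytes. In an unnamed cluster led by Rflnb and Hist1h2ap it was 28.6% (22.8% to 35.1%) at 72 h in KO, and 3.45% at 24 h. Without the 10 members taken as broadly expressed, these 72 h shares were 23.1% in lymphatic endothelial and 13.1% in mesothelial cells. They were 9.14% in pericytes and 13.2% in the Rflnb and Hist1h2ap cluster. In these lymphatic endothelial cells 1 cell gave 36.2% of the list UMIs. Whether these shares are tied to the low depth of this library was not tested beyond the thinning.

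Of the 282 thinned list-positive cells in WT at 72 h, monocytes and macrophages were 50.7%, fibroblasts 13.8%, the Apln and Pgf cluster 10.3% and dendritic cells 9.57%. Of the 485 in KO at 72 h, fibroblasts were 22.9%, monocytes and macrophages 16.7%, the Rflnb and Hist1h2ap cluster 13% and mesothelial cells 8.87%. Monocytes and macrophages were 46.8% of all thinned WT cells and 29.3% of all thinned KO cells at that time, and fibroblasts 3.49% and 11.4%, so the makeup follows both how many cells of a class there were and how many were list-positive. Over all cells the thinned share was 6.66% (5.92% to 7.45%) in WT and 11.3% (10.3% to 12.2%) in KO at 72 h, although no class with at least 50 cells in both had an interval of its KO minus WT difference that excluded 0.

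Within the monocyte and macrophage class, list-positive cells were concentrated in 1 cluster, led by Fcrls, Syngr1, Ms4a7 and Gpnmb. Its thinned share at 72 h was 13.2% (10.9% to 15.7%) in WT and 10.3% (8.14% to 12.9%) in KO. At 24 h the same cluster had 0 of 38 list-positive cells in WT, which allows up to 7.89%, and 0 of 127 in KO, which allows up to 2.36%. The cluster with Cxcl10, Ccl8 and Irf7, which are interferon-induced genes, had 4.07% (2.57% to 6.10%) and 0.833% (0.0211% to 4.56%), the monocyte-like cluster with Plac8 and Ifitm6 had 1.45% and 1.54%, and the cluster with Ccl24 and Arg1 had 1.27% and 1.79%. A small cluster with Lyve1, Mgl2 and Cbr2 had 14.9% (7 of 47 cells) and 8.33% (3 of 36 cells). The clusters also differed in size over time: the Fcrls cluster was 5.82% to 8.98% of the class at sham and 24 h and 40.3% and 52.3% at 72 h, and the Ccl24 and Arg1 cluster 49.1% to 63.7% and then 12.4% and 14.4%.

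Fibroblasts were split more sharply. The cluster led by Cxcl5, Cthrc1, Tnc and Timp1, genes of activated fibroblasts, held every thinned list-positive fibroblast at 72 h, 36.8% (27.6% to 46.7%) of its cells in WT and 23.9% (20.1% to 28.1%) in KO. At 24 h it had 3.45% (2 of 58 cells) in WT and 1.37% (1 of 73) in KO. The cluster led by Clec3b, Dpep1 and Tnxb, genes of resting fibroblasts, had 0 of 35 and 0 of 26 list-positive cells at 72 h, which allow up to 8.57% and 11.5%. Its list level was 213, 225, 247, 252, 232 and 217 CPM in WT sham, KO sham, WT 24 h, KO 24 h, WT 72 h and KO 72 h, without a high library. The activated cluster made up 6.52%, 6.89%, 30.8%, 40.6%, 71.6% and 96.9% of the fibroblasts in that order, so the class at 72 h and at 24 h holds different clusters.

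**Figure D2:**
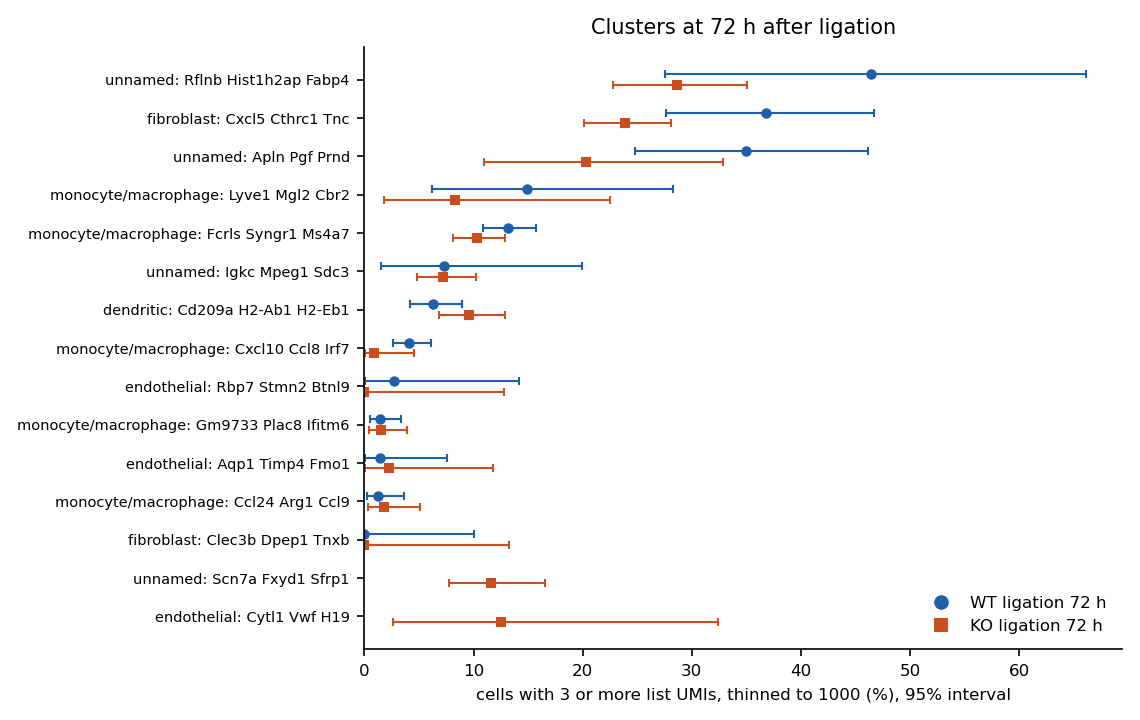
Percent of cells with 3 or more list UMIs after thinning to 1000 UMIs (x axis, 95% exact binomial interval) for each cluster with enough cells at 72 h (y axis, class and leading genes); circles are WT, squares KO. The activated fibroblast cluster (36.8% and 23.9%) and the Fcrls macrophage cluster (13.2% and 10.3%) lie above the other large clusters of their classes.

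The level of each member in the summed cells of a class was then compared between libraries. Among S genes in monocytes and macrophages, Pcna, the DNA clamp, was at 86.5, 90.5, 71.7, 64.6, 138 and 99.4 CPM in WT sham, KO sham, WT 24 h, KO 24 h, WT 72 h and KO 72 h. At 72 h it was 1.92-fold (1.77 to 2.10) and 1.54-fold (1.41 to 1.68) its 24 h level in WT and KO, and its KO level at 72 h was close to that of KO sham. Mcm3 and Mcm6, subunits of the replicative helicase, were at 25.7, 20.6, 12.3, 12.4, 46.3 and 30.2 CPM and at 12.3, 10.6, 8.32, 6.26, 48.6 and 27.6 CPM. Both were highest at 72 h, 3.76-fold and 5.85-fold the 24 h level in WT and 2.45-fold and 4.42-fold in KO. Tyms, which makes dTMP, was at 5.80, 6.43, 11.1, 8.54, 21.4 and 10.9 CPM, with a 72 h to 24 h ratio of 1.92 (1.54 to 2.41) in WT and 1.28 (0.979 to 1.66) in KO. Dut, which removes dUTP, was at 7.67, 5.60, 5.98, 6.53, 39.4 and 21.5 CPM.

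Pclaf, a Pcna-binding protein of S phase, had the largest 72 h to 24 h contrast of the S genes in these cells in WT, whereas in KO it was that of Tk1, at 38.9-fold. Pclaf was at 1.31, 0.476, 0, 0.816, 51.2 and 20.2 CPM in the same order. Its 0 UMIs in WT at 24 h, set to 3, make the WT level at 72 h at least 146-fold higher. In KO it was 24.8-fold higher (14.6 to 45.2). Only the 72 h libraries had more than 1.31 CPM.

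The G2/M genes were further apart between the 2 times. In monocytes and macrophages Stmn1, a tubulin-binding protein, was at 16.7, 15.7, 10.8, 8.81, 178 and 93.6 CPM. Mki67, the Ki-67 antigen, was at 5.99, 3.81, 2.81, 2.61, 37.3 and 22.3 CPM, and Top2a, the DNA topoisomerase of mitosis, at 5.99, 4.41, 3.28, 2.88, 33.7 and 22.7 CPM. For these genes the 2 libraries at 72 h lay above the other 4 without overlap, 13.3-fold (8.86 to 20.8) and 8.55-fold (6.20 to 12.0) over 24 h for Mki67 in WT and KO. Birc5, survivin of the chromosomal passenger complex, was at 1.59, 1.43, 0.117, 0.870, 55.3 and 27.2 CPM. With 1 UMI in WT at 24 h its ratio was 472 (84.6 to 18664), against 31.2 (18.8 to 55.5) in KO. Cenpa, the histone of centromeres, differed least of the 6 most abundant G2/M genes, at 17.0, 16.9, 14.5, 14.6, 41.3 and 37.8 CPM.

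Ube2c, the ubiquitin-conjugating enzyme of the anaphase-promoting complex, was at 1.40, 4.41, 0.117, 3.59, 37.4 and 22.2 CPM in monocytes and macrophages. It was the member that went against the list between genotypes before 72 h, with a KO to WT ratio of 3.14 (1.68 to 6.16) in sham and of 30.6 (5.31 to 1228) at 24 h, from 66 UMIs against 1. At these times a few cells carry such sums: 1 cell gave 39.8% of the G2/M UMIs of this class in KO sham and 32.3% in KO 24 h, and 29.3% and 20% in WT.

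Over the list, 41 of 44 members were at least 2-fold higher at 72 h than at 24 h in WT monocytes and macrophages, where 9.84% of all 10523 genes with at least 50 UMIs were. The others, Pcna, Tyms and Cdt1, an origin-licensing factor, had ratios of 1.92 to 1.93, and the largest were those of Birc5, Ube2c (319, from 1 UMI at 24 h) and Pclaf. In KO, 35 members reached 50 UMIs, and 33 of them were at least 2-fold higher, with 6.07% of all genes. The other 2 were Tyms and Pcna, and Gins2, of the replisome, was next (2.20). The 9 below the minimum were Rrm2, Cdc6, Clspn, Ccne1, Ccne2, Ccnb1, Bub1, Plk1 and Kif20a, and the largest ratios were those of Tk1, thymidine kinase (38.9), Birc5 (31.2) and Ccnb2, cyclin B2 (30.8). No member was 2-fold lower in either genotype, with 7.81% and 3.58% of all genes. The median member stood at a log2 ratio of 3.56 in WT and 2.63 in KO, and the median of all genes at 0.01 and 0.09. Members that are rare at 24 h reached the minimum through their level at 72 h, so these counts describe the list and support nothing by themselves.

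In fibroblasts the S genes taken as broadly expressed differed with time to unequal degrees. From 24 h to 72 h in WT, Pcna, Mcm3 and Mcm7 had ratios under 1.5, and Mcm2 (3.62), Mcm4 (2.72), Mcm5 (3.92), Mcm6 (2.82), Rrm1 (3.98) and Dut (3.83) were higher. In KO Mcm5 (2.23), Rrm1 (4.51) and Dut (2.33) were at least 2-fold higher. Pcna was at 71.2, 56.8, 72.7, 80.0, 95.2 and 93.5 CPM in WT sham, KO sham, WT 24 h, KO 24 h, WT 72 h and KO 72 h, a 72 h to 24 h ratio of 1.31 (1.09 to 1.58) in WT and 1.17 (0.951 to 1.43) in KO. Mcm3 was at 29.1, 9.28, 23.1, 24.6, 33.4 and 28.6 CPM and Mcm6 at 31.9, 17.9, 21.1, 18.8, 59.4 and 29.5 CPM. Dut was at 71.9, 46.8, 55.5, 68.4, 212 and 159 CPM and Tyms at 23.9, 14, 16.4, 15.8, 109.5 and 76.3 CPM, so these nucleotide enzymes were highest in both 72 h libraries whereas Mcm3 and Pcna ratios lay under 1.5. Pclaf was at 7.96, 0.679, 1.17, 0, 131 and 105 CPM, a WT ratio of 112 (38.0 to 543).

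The G2/M genes of fibroblasts were nearly absent before 72 h. Mki67 was at 1.99, 0, 0, 0.417, 61.8 and 55.1 CPM, with 211 UMIs at 72 h in WT against 0 at 24 h, at least 5.72 higher on the log2 scale when the 0 is set to 3. In KO the ratio was 132 (23.3 to 5269), from 1 UMI at 24 h. Top2a was at 3.24, 0.453, 0.782, 1.67, 36.3 and 35.9 CPM. Cenpa was at 1.99, 3.62, 3.91, 2.50, 185 and 162 CPM, 47.4-fold (25.6 to 99.4) and 64.5-fold (29.3 to 177) over 24 h in WT and KO. In macrophages Cenpa was at 14.5 to 17.0 CPM at sham and 24 h, whereas its fibroblast level outside 72 h was at most 3.91 CPM. Birc5 was at 3.73, 0.226, 1.17, 0.834, 177 and 116 CPM, Ube2c at 0.996, 0, 0.782, 1.25, 72.9 and 81.7 CPM, and Stmn1 at 9.96, 12.2, 7.43, 4.17, 263 and 218 CPM. For all 6 of these genes both 72 h libraries lay above the other 4.

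In WT fibroblasts 37 members reached 50 UMIs, and 34 were at least 2-fold higher at 72 h than at 24 h, where 6.22% of all 8622 genes were. The other 3 were Mcm3, Mcm7 and Pcna, at 1.45, 1.07 and 1.31. In KO 31 members reached the minimum and 25 were at least 2-fold higher, with 6.44% of all 7737 genes. The other 6 were Mcm2, Mcm3, Mcm4, Mcm6, Mcm7 and Pcna, and the smallest ratios were those of Mcm2 (0.886, 0.546 to 1.42), Mcm7 (0.959) and Mcm3 (1.16). No member was 2-fold lower, with 15.9% and 6.75% of all genes. As in macrophages, members rare at 24 h reached the minimum through their level at 72 h, so these counts support nothing by themselves. The largest ratios were those of Birc5 (151), Pclaf (112) and Cenpf (103) in WT and of Ccnb2 (149), Birc5 (139) and Mki67 (132) in KO. Cdc6, Cdt1, Ccne1, Ccne2, Aurkb, Nusap1 and Kif11 had under 50 UMIs in WT, and in KO these 7 and Uhrf1, Clspn, Cenpe, Bub1, Bub1b and Kif20a.

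**Figure D3:**
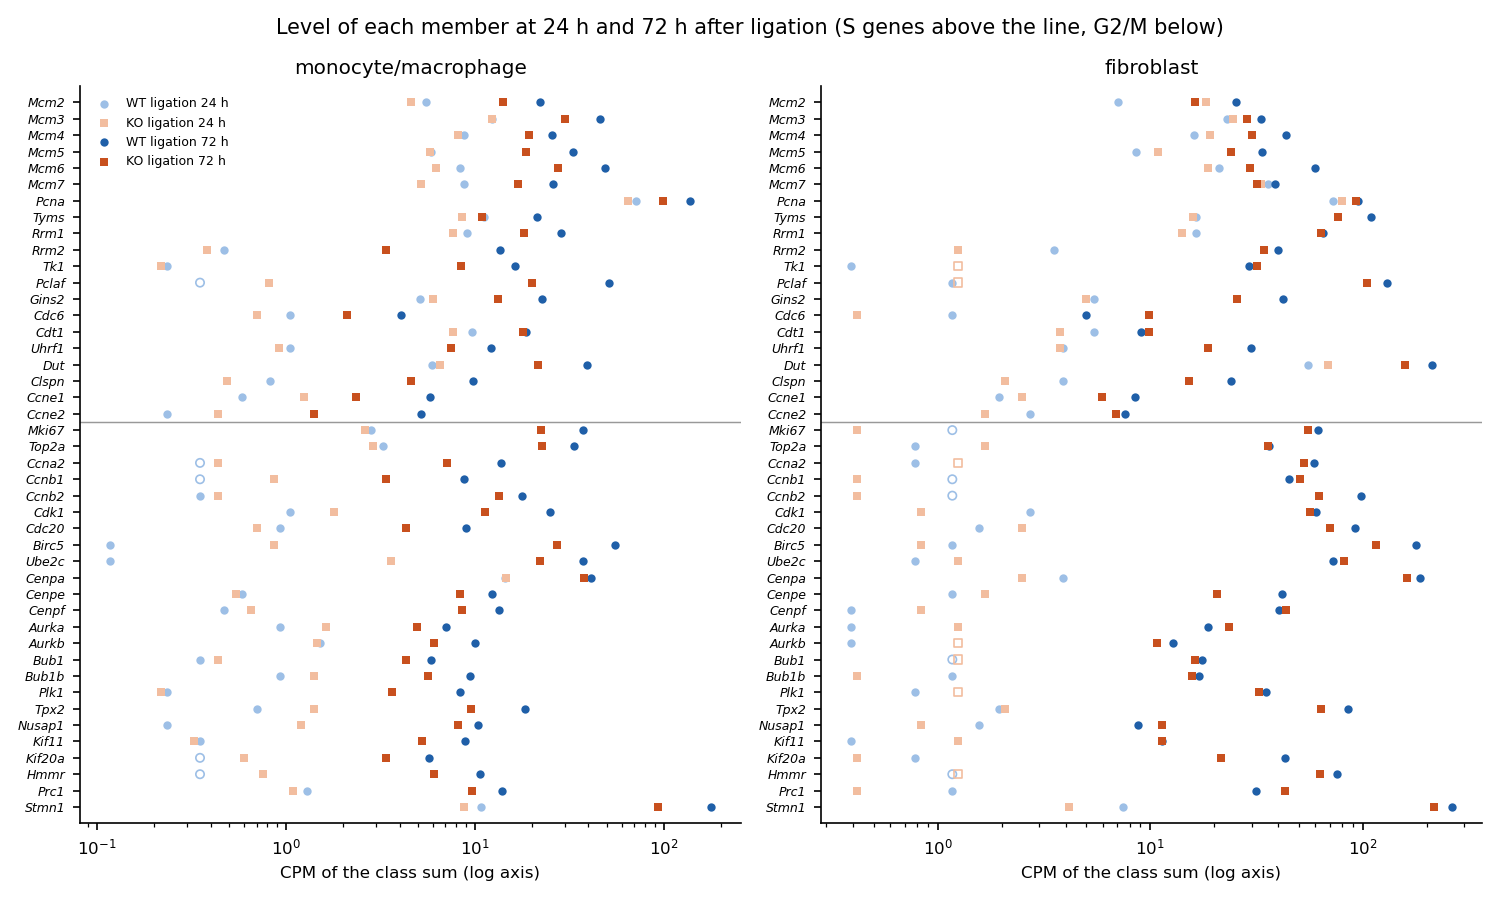
Level of each of the 44 genes (y axis, S genes above the line and G2/M genes below) in CPM of the class sum (x axis, log axis) in monocytes and macrophages (left) and fibroblasts (right); pale symbols are 24 h and dark symbols 72 h after ligation, circles WT and squares KO, and open symbols are genes with 0 UMIs drawn at the level of 3 UMIs. Most G2/M genes are far to the right at 72 h, whereas Pcna, Mcm3 and Mcm7 of fibroblasts lie close together at both times.

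Summed by phase, the S genes of monocytes and macrophages were at 212, 204, 167, 149, 589 and 358 CPM and the G2/M genes at 68.0, 70.8, 41.6, 49.4, 592 and 349 CPM, in the order WT sham, KO sham, WT 24 h, KO 24 h, WT 72 h and KO 72 h. The S genes were 3.53-fold (3.34 to 3.73) and the G2/M genes 14.2-fold (12.8 to 15.8) over 24 h in WT, and 2.41-fold and 7.07-fold in KO. In fibroblasts the S genes were at 396, 239, 303, 324, 1043 and 817 CPM and the G2/M genes at 50.3, 24.4, 29.3, 24.2, 1591 and 1338 CPM. Here the ratios were 3.45 (3.19 to 3.73) and 54.3 (43.2 to 69.1) in WT and 2.52 and 55.4 in KO. The number of S UMIs per G2/M UMI, in which the depth of a library cancels, was 2.88 to 4.01 in monocytes and macrophages before 72 h and 0.995 and 1.03 at 72 h. In fibroblasts it was 7.88 to 13.4 before 72 h and 0.655 and 0.610 at 72 h.

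**Figure D4:**
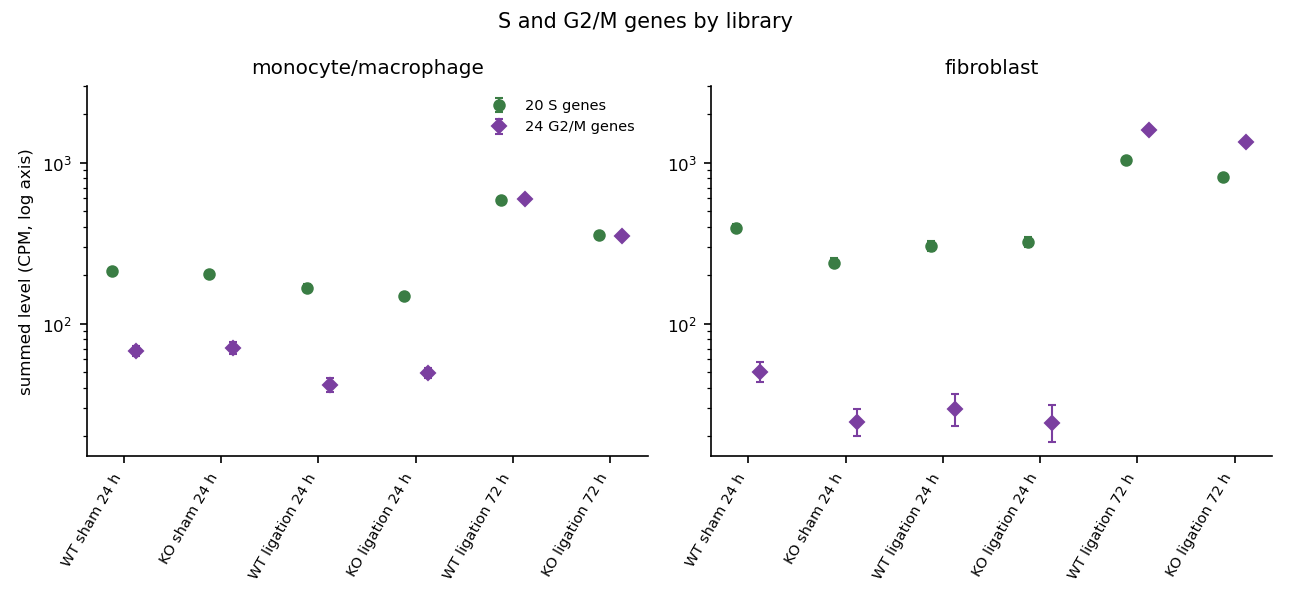
Summed level of the 20 S genes (circles) and the 24 G2/M genes (diamonds) in CPM of the class sum (y axis, log axis) by library (x axis), with 95% exact Poisson intervals for counting error, in monocytes and macrophages (left) and fibroblasts (right). S genes lie above G2/M genes in the 4 libraries of sham and 24 h, and at 72 h the 2 are nearly equal in macrophages and G2/M genes are higher in fibroblasts.

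For the whole list the level was 279.7, 275.1, 208.5, 198, 1181 and 708 CPM in monocytes and macrophages and 446, 264, 332, 348, 2634 and 2155 CPM in fibroblasts. The ratio of 72 h to 24 h was 5.66 (5.40 to 5.94) in WT and 3.57 (3.43 to 3.73) in KO in the first class and 7.94 (7.40 to 8.53) and 6.19 (5.75 to 6.67) in the second. In neutrophils the list was at 75.0, 75.7, 52.6, 64.9, 146 and 203 CPM, a 72 h to 24 h ratio of 2.78 (2.33 to 3.31) in WT and 3.13 (2.64 to 3.70) in KO. Neutrophil sums differed broadly between these times, with 32.2% and 29.1% of all genes at least 2-fold higher, and only 2 and 3 members reached 50 UMIs, 1 and 2 of them 2-fold higher. Top2a in neutrophils was at 0, 0, 0.460, 0.208, 0.479 and 2.24 CPM. In KO dendritic cells 10 of 18 members with 50 UMIs were at least 2-fold higher at 72 h than at 24 h, with 3.3% of all genes. Members rare at 24 h reached the minimum there through their level at 72 h, so this count supports nothing by itself.

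Between 24 h after ligation and sham, list levels in monocytes and macrophages were lower at 24 h, 0.745-fold (0.702 to 0.791) in WT and 0.720-fold (0.683 to 0.759) in KO. By member, 2 of 16 in WT were at least 2-fold lower, with 3.52% of all genes: Mki67 at 0.470 (0.281 to 0.762) and Mcm3 at 0.478 (0.378 to 0.601), with Top2a next at 0.548. In KO 0 of 17 were, with 6.79% of all genes, and the smallest ratios were those of Mcm7 (0.555), Stmn1 (0.561) and Mcm6 (0.590). No member was 2-fold higher in either, with 2.54% and 1.75% of all genes, and Tyms had the largest ratio, 1.92 (1.38 to 2.69) in WT and 1.33 (0.969 to 1.85) in KO, followed by Mcm7 (1.62) and Mcm2 (0.965) in WT and Dut (1.17) and Cenpa (0.865) in KO. The class was also made up differently: the Lyve1, Mgl2 and Cbr2 cluster, with a list level of 500.2 and 530.2 CPM in WT and KO sham, was 20% and 24.3% of it in sham and 5.21% and 3.43% at 24 h, and the part of this in the lower list level was not tested. Thinned shares at the 2 times differed by -0.493 points (-1.29 to 0.403) in WT and -0.105 points (-0.855 to 0.392) in KO.

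In fibroblasts the same comparison differed in direction between the genotypes, at 0.744-fold (0.685 to 0.807) in WT and 1.32-fold (1.21 to 1.44) in KO. At 24 h WT and KO were alike in level (332 and 348 CPM), and the shams were apart (446 and 264 CPM). In WT 2 of 13 members were 2-fold lower, with 4.32% of all genes: Uhrf1, which maintains DNA methylation at the fork (0.314, 0.142 to 0.627), and Mcm2 (0.428, 0.239 to 0.730). None was 2-fold higher, with 4.68% of all genes, and Mcm7 (1.47), Pcna (1.02) and Rrm1 (0.835) had the largest ratios, with Mcm4 the third smallest (0.507). In KO Mcm3 (2.65, 1.75 to 4.05) and Mcm2 (2.61, 1.61 to 4.28) were 2 of 10 that were 2-fold higher, with 3.92% of all genes, followed by Dut (1.46), and Stmn1 was lower (0.341, 0.155 to 0.677), with 9.49% of all genes at least 2-fold lower. Stmn1, the only one of the 10 that was 2-fold against the direction of the list there, was at 4.17 CPM from 10 UMIs at 24 h and 12.2 CPM in sham. Rrm1 (0.652) and Mcm6 (1.05) had the next smallest ratios.

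The list level of fibroblasts differed between the shams, and the part of the few list-positive cells in this was not tested. The KO to WT ratio of the list was 0.591 (0.549 to 0.637), 4 of 13 members were 2-fold lower, with 0.568% of all genes, and none was 2-fold higher, with 1.1%. Members rare in KO sham reached the minimum of UMIs through their WT level, so these counts support nothing by themselves. Uhrf1 (0.20), Mcm5 (0.299) and Mcm3 (0.319) had the smallest ratios and Stmn1 (1.23), Rrm1 (1.11) and Mcm7 (1.06) the largest. All 6 thinned list-positive fibroblasts of WT sham lay among the 24 cells of the activated cluster, whose median depth was 37175 UMIs, against 0 of 31 cells in KO sham, which allows up to 9.68%, at a median of 19051 UMIs. In the Clec3b cluster, which holds most sham fibroblasts, the list was at 213 CPM in WT and 225 CPM in KO. A single cell gave 11.9% of the list UMIs of WT sham fibroblasts, and without the cell with the most list UMIs in each library the ratio was 0.655.

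In sham endothelial cells the list was at 386 CPM in WT and 449 CPM in KO, a ratio of 1.16 (1.11 to 1.22), with S genes at 0.967 (0.911 to 1.03) and G2/M genes at 1.47 (1.37 to 1.58). By member, 4 of 21 were at least 2-fold higher in KO, with 0.438% of all genes, and 0 lower, with 1.15%. A member rare in WT sham reached the minimum of UMIs through its KO level, so these counts support nothing by themselves. The largest ratios were those of Cenpf, a kinetochore protein (61.2, 10.7 to 2446, from 87 UMIs against 1), Ube2c (12.0, 3.87 to 59.9) and Cdc20, an activator of the anaphase-promoting complex (2.99, 1.72 to 5.53). The smallest were those of Cdc6, an origin-licensing factor (0.633), Cdk1 (0.638) and Gins2 (0.756). One cell gave 11.1% of the G2/M UMIs of KO sham endothelial cells, which include those of Stmn1, 34.0% of the list UMIs there. Of the 2868 cells, 6 had 20 or more list UMIs, the highest 287, against 1 of 2106 cells in WT. The part of these cells in the ratios of rare members such as Cenpf and Ube2c was not tested. The thinned shares, 1.10% and 1.47%, differed by 0.370 points (-0.296 to 1.0). For monocytes and macrophages in sham, 1 of 17 members was 2-fold higher in KO, with 1.35% of all genes, and 0 lower, with 0.295%, and the list ratio was 0.983 (0.931 to 1.04). After Ube2c the largest ratios there were those of Mcm7 (1.73) and Gins2 (1.29), and the smallest those of Mki67 (0.637), Mcm4 (0.698) and Mcm5 (0.726).

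At 24 h after ligation the genotypes had list ratios of 0.950 (0.897 to 1.01) in monocytes and macrophages and 1.05 (0.952 to 1.16) in fibroblasts, KO over WT. At least 2-fold higher in KO were 1 of 17 members (Ube2c, with 0.518% of all genes) in the first class and 1 of 9 (Mcm2, with 0.576%) in the second. Ube2c reached the minimum of UMIs through its KO level, so these counts support nothing by themselves. The next largest ratios were those of Gins2 (1.17) and Dut (1.09) in the first class and Dut (1.23) and Mcm4 (1.20) in the second. None was 2-fold lower, with 1.37% and 2.51% of all genes, and the smallest ratios were those of Mcm7 (0.594), Mcm6 (0.752) and Tyms (0.767) in the first class and Rrm1 (0.863), Mcm6 (0.889) and Mcm7 (0.927) in the second.

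At 72 h the list in monocytes and macrophages was lower in KO than in WT by sums of UMIs, at 0.599-fold (0.583 to 0.616), whereas the mean over cells of the list level in each cell gave 0.929-fold. Of the 44 members 10 were at least 2-fold lower in KO, with 1.19% of all genes, and 0 higher, with 1.72%. Members rare in KO reached the minimum of UMIs through their WT level, so these counts support nothing by themselves. The 10 lower members were 5 S genes (Rrm2, Ccne2, Pclaf, Ccne1 and Clspn) and 5 G2/M genes (Ccnb1, Plk1, Cdk1, Cdc20 and Birc5). Rrm2, the small subunit of ribonucleotide reductase (0.250, 0.165 to 0.364), Ccne2, a cyclin E (0.272, 0.137 to 0.490), and Ccnb1, cyclin B1 (0.389, 0.255 to 0.573), had the smallest ratios. Cdt1 (0.958), Cenpa (0.917) and Nusap1, a spindle protein (0.781), had the largest. The thinned shares differed by -0.815 points, KO minus WT (-2.55 to 1.01).

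The thinned list-positive macrophages of WT had a median of 24690 UMIs against 11417 in cells without a list UMI, and in KO 2835 against 5417. With cells classed at the depth of the files the medians were 15739 against 8236 in WT and 9936 against 2129 in KO, and their part in the ratio was not tested. Genotype and depth of the library cannot be told apart here. In fibroblasts the KO to WT ratio at 72 h was 0.818 (0.789 to 0.848), 0 of 41 members were 2-fold higher, with 4.63% of all genes, and 2 lower, with 1.39%: Mcm6 (0.497) and Cenpe, a kinetochore motor (0.497), with Kif20a, a motor of cell division, next (0.503). Prc1, which bundles the spindle midzone (1.37, 1.02 to 1.83), Nusap1 (1.29) and Aurka, a mitotic kinase (1.26), had the largest ratios. The thinned shares differed by -3.79 points (-12.2 to 3.73). A single cell gave 20.8% of the list UMIs of KO fibroblasts at 72 h and 6.68% of those of WT.

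Genes outside the list were read in the thinned list-positive and list-negative cells of 72 h. The genes named depend on the thinning: with cells classed at the depth of the files, 1 of the 10 higher and 5 of the 10 lower genes of monocytes and macrophages were named again, and 0 and 4 of those of fibroblasts. In monocytes and macrophages (143 against 1361 cells in WT, 81 against 853 in KO), the highest ratios belonged to Atad2, a chromatin-bound ATPase (14.4, 12.0 to 17.4 in WT and 10.1 in KO), Hist1h4d (6.21 and 5.54), Lmnb1, lamin B1 (5.86 and 4.22), Hmgn1 (4.94 and 4.90), Selenoh, Tmpo, H2afv, Tubb5, Csrp1 and Sae1. Reads of histone genes such as Hist1h4d can fall on near-identical copies, so that gene is uncertain. The lowest were Ly6c2 (0.0874 in WT and 0.183 in KO), Thbs1 (0.104 and 0.187), Ifitm6, Plac8 (0.118 and 0.104), Hp, Slpi, Napsa, Il1b (0.194 and 0.463), Slfn1 and Cxcl2.

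The resident macrophage list (Lyve1, Timd4, Folr2, Cd163, Mrc1, Cbr2, Vsig4 and F13a1) was at 934 CPM in list-positive and 749 CPM in list-negative cells of WT, a ratio of 1.25 (1.20 to 1.30), and in KO the ratio was 1.27 (1.16 to 1.39). Markers of fibroblasts were at 282 and 288 CPM in list-positive and list-negative cells of WT and 320 and 296 CPM in KO, with 5 of 10 detected in the list-positive cells and Pdgfra, Lum, Dpt, Tcf21 and Postn at 0.

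In fibroblasts (39 against 61 cells in WT, 111 against 187 in KO), Cdkn3, a phosphatase that acts on cyclin-dependent kinases, had the highest ratio, 17.6 (7.93 to 48.6) in WT and 10.7 in KO. Next were Hmgb3 (6.15 and 3.39), Cxcl1, a neutrophil-attracting chemokine (5.30 and 2.57), Cenpw (5.09 and 7.56), Spc24, Lsm2, Anp32e, Tubb4b, Exosc8 and Phgdh. The lowest were Clec3b (0.00168 and 0.0142), Pi16 (0.00630 and 0.0201), Gsn, gelsolin (0.0113 and 0.0236), Tnxb, Igfbp5, Hsd11b1, Myoc, Abca8a, Eln and G0s2. Clec3b and Tnxb are among the leading genes of the resting cluster, which had no list-positive cell. Fibroblast markers themselves were lower in list-positive cells, at 19820 against 41322 CPM in WT and 10602 against 29450 CPM in KO, with 10 of 10 detected. Monocyte and macrophage markers were lower too, at 697 against 2753 CPM and 1932 against 5016 CPM, with 16 of 16 detected in list-positive cells. The median depth of list-positive fibroblasts was 38901 UMIs against 7248 in WT and 1900 against 1628 in KO, and the part of doublets of 2 fibroblasts in these depths was not tested.

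Other cell cycle genes were counted by list at 72 h against 24 h, with the same minimum and fold. Genes rare at 24 h reach this minimum through their level at 72 h, so these counts too support nothing by themselves. The share of all genes at least 2-fold higher was 9.84% in WT and 6.07% in KO for macrophages and 6.22% and 6.44% for fibroblasts, and the share at least 2-fold lower 7.81%, 3.58%, 15.9% and 6.75%. Of 34 further mitosis genes, 29 of 33 with enough UMIs were higher in monocytes and macrophages of WT and 10 of 18 in KO, and 22 of 24 and 12 of 14 in fibroblasts, with 0 lower. Ube2s, a ubiquitin-conjugating enzyme of mitosis, was at 1.40-fold and 0.959-fold in macrophages but 2.72-fold (2.46 to 3.01) and 2.14-fold (1.92 to 2.39) in fibroblasts, WT first. Hmgb2, a chromatin protein, was at 1.46-fold and 1.22-fold in macrophages and at 7.63-fold (6.29 to 9.32) and 6.13-fold (5.16 to 7.34) in fibroblasts. Of 22 further replication genes, 18 of 21 and 7 of 16 were higher in macrophages and 8 of 15 and 2 of 10 in fibroblasts, with 0 lower. Its most abundant members, Slbp, the histone mRNA binding protein, and Nasp, a histone chaperone, had WT ratios of 1.16 and 1.72 in macrophages and 1.45 and 1.64 in fibroblasts. Of 8 histone and chromatin genes, 4 were higher and Hist1h1e lower in WT macrophages, 3 higher in KO, and 6 and 7 higher in fibroblasts. H2afz, a histone variant, was at 2.07-fold and 1.55-fold in macrophages and 5.26-fold and 3.69-fold in fibroblasts, and Hmgb1 at 1.04-fold, 1.21-fold, 1.47-fold and 1.55-fold.

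The genes that govern entry into the cycle differed in both directions. Of 6 G1 cyclins and kinases, all with enough UMIs in macrophages, Ccnd1, cyclin D1, was higher in both genotypes (3.16-fold, 2.76 to 3.64, in WT and 3.62-fold, 3.17 to 4.13, in KO) and Ccnd2 was lower in WT (0.432-fold). In fibroblasts 5 had enough UMIs, and Cdk4 was at 2.12-fold (1.91 to 2.37) in WT and 1.34-fold in KO. The most abundant others, Cdk4 in macrophages and Ccnd3 in both classes, had ratios of 0.702 to 1.48. Among 10 inhibitors and pocket proteins, Cdkn1a, the p21 inhibitor, was lower in macrophages of both genotypes, at 222 against 629 CPM in WT (0.353-fold, 0.340 to 0.366) and 218 against 447 CPM in KO (0.489-fold, 0.464 to 0.514), and in fibroblasts at 0.763-fold in WT and 0.343-fold in KO. Cdkn1b, the p27 inhibitor, was at 0.648-fold and 1.80-fold in macrophages and 0.679-fold and 1.18-fold in fibroblasts. Of 10 transcription factors, E2f1, E2f8, Mybl2 and Foxm1 were higher in WT macrophages and E2f1 in KO, at 3.07-fold and 2.0-fold. E2f4 was at 1.06-fold and 0.674-fold in macrophages, and Myc was at 0.423-fold (0.344 to 0.519) and 0.559-fold (0.434 to 0.715) in fibroblasts.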

How the data were processed

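Each of the 6 libraries is a table of UMI counts per gene and cell as deposited by the authors. Per the submitters' processing notes it was made with Cell Ranger 6.0.0 on build mm10. No other step of the authors' processing is given in the sources used here, and all columns of all deposited files belong to these 6 libraries. Gene positions came from GENCODE M21.

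Cells with fewer than 200 genes or over 20% mitochondrial UMIs were removed, then the cells with the highest Scrublet scores, 0.8% per 1000 deposited cells. Log values of counts per 10000 UMIs were clustered with scanpy 1.11.5 (python 3.11.15, igraph 0.11.9). Using 2000 variable genes, 30 components, 20 neighbours and Leiden resolution 1, this gave 32 clusters over all libraries, with no batch correction. Members, other listed cell cycle genes and Trpm4 were left out of the variable genes. Clusters were named from marker lists.

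UMIs were summed by class and library. Ratios have exact conditional Poisson intervals, shares Clopper-Pearson intervals, and differences of shares Newcombe intervals (scipy 1.17.1, 95%). The limit that a share of 0 allows is 3 divided by its cells and not a Clopper-Pearson limit. A gene was counted as 2-fold higher or lower with at least 50 UMIs over both libraries and at least 100 cells in both, and a count of 0 was set to 3. A gene rare in 1 library reaches this minimum only through the other, so it can only be counted on that side. Shares need at least 50 cells. The 6 S and 6 G2/M members with the most UMIs were described in every library, with the 3 largest and 3 smallest ratios of a comparison and any member 2-fold against the list. For list-positive cells, the 10 highest and 10 lowest genes of WT with at least 100 CPM and 50 UMIs that were 1.5-fold the same way in KO were named. For the other cell cycle lists the 2 genes with the most UMIs were given, and Ccnd1, Ccnd2, E2f1, E2f8, Mybl2, Foxm1 and Hist1h1e were added after their values were seen. Promoter windows that touch an annotated exon were passed over. The members, lists and tests were chosen with earlier results of these data known. Ratios, intervals and thinning were tested on simulated data. The result of 1 marker list is not reported here.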

Additional observations from a re-analysis of the deposited data

Results flagged for a closer look

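The list level of fibroblasts at 24 h after ligation against sham lay on opposite sides of 1 in the genotypes, 0.744 in WT and 1.32 in KO. With 1 library per group the difference between the 2 ratios was not tested. The levels behind it were 446 and 332 CPM in WT and 264 and 348 CPM in KO, sham first. The 24 cells of the activated cluster in WT sham held all 6 thinned list-positive fibroblasts of that library, and their part in the opposite directions was not tested.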

How the results depend on the processing

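Over 30 results, 186 values were recomputed under other settings: 107 moved by less than the interval or factor allowed, 79 moved by more, and no called ratio changed sides of 1. The order of WT and KO in a share was not part of this check. In the thinned share at 72 h, KO lay above WT under some settings. For macrophages these were 2000 UMIs, 2 or more list UMIs, and cell cycle genes in the clustering. For fibroblasts it was 2 or more list UMIs. Macrophage here stands for the monocyte and macrophage class, and values are for 72 h and WT then KO unless stated. The thinned share of macrophages (7.22% and 6.40%) was 3.84% and 3.56% without the 10 genes taken as broadly expressed, 4.26% and 3.24% thinned to 500 UMIs, 11.4% and 12.1% thinned to 2000 UMIs, 11.9% and 12.1% at 2 or more list UMIs, and 9.85% and 14.6% with cell cycle genes allowed in the clustering. For fibroblasts (26.4% and 22.6%) it was 16.2% and 14.4%, 14.2% and 9.29%, 43.1% and 41.1%, and 36.5% and 39.0% under the first 4 of these. The share of macrophages as deposited (54.4% and 28.0%) was 19.0% and 10.9% without those 10 genes, 69.1% and 43.2% at 2 or more UMIs and 32.6% and 15.5% at 5 or more. In KO it was also 18.1% at resolution 0.5, 30.5% with no doublet removal, 35.6% with cell cycle genes in the clustering and 36.7% in cells of at least 1500 UMIs. The list ratio of 72 h to 24 h in macrophages (5.66 and 3.57) was 7.71 and 5.85 with cell cycle genes in the clustering, 9.71 and 5.11 without the 10 genes and 3.92 and 3.87 as a mean over cells. It was 6.05 in WT without the cell with the most list UMIs in each library, a setting chosen after seeing the data, and 3.35 for KO when set against the median gene. In fibroblasts (7.94 and 6.19) it was 25.9 and 26.0 without the 10 genes, 9.51 and 6.81 relative to the median gene and 8.92 and 5.61 without the top cell, with 8.57 in WT with cell cycle genes in the clustering, and 5.14 at resolution 0.5 and 6.73 in cells of at least 1500 UMIs in KO. The KO to WT ratio at 72 h was, in macrophages (0.599), 0.638 with no doublet removal, 0.807 with cell cycle genes in the clustering, 0.929 as a mean over cells and 0.579 without the top cell. In fibroblasts (0.818) these gave 0.766, 0.784, 0.871 and 0.720, with 0.678 at resolution 0.5 and 0.888 in cells of at least 1500 UMIs. In sham the KO to WT ratio of endothelial cells (1.16) was 1.34 and 1.30 at resolutions 0.5 and 2, 1.26 with no doublet removal, 1.47 at 10% mitochondrial UMIs at most, 1.05 with cell cycle genes in the clustering, 1.54 without the 10 genes and 1.22 relative to the median gene. For sham fibroblasts (0.591) it was 0.358 without the 10 genes, 0.659 as a mean over cells and 0.655 without the top cell. In KO fibroblasts 38 members were 2-fold higher with no minimum, against 25. Among list-positive cells, macrophages were 50.7% and 16.7% and fibroblasts 13.8% and 22.9% after thinning, and fibroblasts 9.47% at 5 or more UMIs in WT. S UMIs per G2/M UMI without Stmn1, Dut and Pcna were 0.929 in KO macrophages and 0.554 and 0.503 in fibroblasts, and 0.651 in KO fibroblasts of at least 1500 UMIs. Of the genes named in list-positive cells, 1 of 10 higher and 5 of 10 lower in macrophages and 0 and 4 in fibroblasts were named again from counts as deposited. The cause of these shifts was not tested, beyond what fewer genes, cells or UMIs set by construction. No paired analysis was possible because each group has 1 library, and for the same reason no replicate could be left out. Depth limits the KO library at 72 h most, where 36.8% of cells fell below the thinning depth.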
